A study of Mus musculus with 8 samples.

Results

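The integrated stress response and the mitokines it releases were followed through 10 genes: Atf4, Atf5, Ddit3, Asns, Chac1, Trib3, Sesn2, Ddit4, Fgf21 and Gdf15. The members were taken by name, with earlier results of these data known, and all 10 were found among the 27179 genes counted. RNA came from neonatal cardiomyocytes (NCMs) of male C57Bl/6J offspring on postnatal day 0, and each of the 8 libraries held the cells of 1 heart. The dams of 4 neonates breathed filtered air (FA) and those of the other 4 breathed diesel exhaust (DE) from embryonic day 0.5 until late gestation. The litter of each neonate is not given in the labels, so the 4 libraries of a group may share a dam, and p-values measure the spread between these libraries. NCMs were separated from other heart cells by pre-plating and kept with cytosine arabinoside before freezing, and both groups were handled in this way. The libraries were FA replicates 2, 3, 4 and 6 and DE replicates 1, 3, 5 and 7. In the sample names DE replicates 3 and 5 carry the number 12 and the other 6 libraries the number 11. What this number stands for is not stated in the sources used here.

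The integrated stress response is set off when a kinase that senses a lack of amino acids, misfolded protein, haem shortage, double-stranded RNA or mitochondrial damage phosphorylates the translation initiation factor eIF2. Translation as a whole then slows, while the mRNA of the transcription factor ATF4 is translated more, so that ATF4 activity can rise with little change in its mRNA. ATF4 and its partners switch on genes for amino acid supply, for glutathione breakdown and for brakes on growth signalling. In muscle and heart, mitochondrial dysfunction is also known to raise the secreted hormones FGF21 and GDF15, called mitokines, through this route.

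ATF4 pairs with C/EBP proteins at a composite element, spelled here TGATGNAAN, or NTTNCATCA when it lies on the opposite strand. Windows of 250 bases before the transcription starts of RefSeq (GRCm38.p6) were searched on both strands. A match stood in the windows of 3 of the 10 members, Chac1, Asns and Fgf21. Of 27025 genes with a window, 1052 (3.89%) held a match. These 3 stretches are printed because the element is the sequence through which ATF4 is known to act, and because they belong to members at very different levels in NCMs. Each is read 5′ to 3′ on the strand of its gene, and capitals mark the match with 10 bases on either side.
Chac1: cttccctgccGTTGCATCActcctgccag
Asns: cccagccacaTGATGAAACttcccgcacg
Fgf21: agacccccccATTGCATCAtccgtccagg
The Chac1 stretch lies at chr2:119351038-119351066 (plus strand), and its match runs from 194 to 186 bases before the start. The Asns stretch lies at chr6:7693214-7693242 (minus strand), with the match 23 to 15 bases before the start. The Fgf21 stretch lies at chr7:45615612-45615640 (minus strand), with the match 140 to 132 bases before the start. In Chac1 and Fgf21 the element is on the opposite strand, and both share the letters TTGCATCA. The windows of Atf4, Atf5, Ddit3, Trib3, Sesn2, Ddit4 and Gdf15 did not hold these letters.

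Library totals ran from 17943024 to 39839737 counts. Levels are given as CPM, the count of a gene relative to its library's total, scaled by TMM factors, and 14966 genes had enough counts to be tested with edgeR's quasi-likelihood test. Genes are named as called where the adjusted p was up to 0.05 and the difference at least 25%. Markers of cardiomyocytes dominated every library, at a summed 80551 to 85759 CPM in FA and 68302 to 79254 CPM in DE, with 1 of 13 called higher and 2 called lower, where 3.58% of all tested genes were called higher in DE and 2.22% lower. Summed fibroblast markers were at 2008 to 3461 CPM in FA and 3655 to 6177 CPM in DE, so the groups did not overlap, and 2 of 8, Col1a1 and Dcn, were called higher. The corresponding sums in FA and in DE were 969 to 1282 and 1051 to 1562 CPM for endothelial cells, and 1556 to 2097 and 1105 to 1463 CPM for smooth muscle and pericytes. Leukocyte markers summed to 17.1 to 21.8 CPM in FA and 22.8 to 34.1 CPM in DE, and hepatocyte markers to 1.35 to 2.56 and 2.30 to 3.87 CPM, with Serpina1a at 0 counts. Erythroid markers, with 1 of 6 called higher, summed to 759 to 1880 and 1209 to 2022 CPM, and atrial markers to 521 to 1289 and 516 to 794 CPM. The groups also did not overlap in the sums of cardiomyocytes, of leukocytes, and of smooth muscle and pericytes. Of the cardiomyocyte markers, Myh7 was called higher and Myh6 and Pln lower. Means in FA and DE were 23299 and 14622 CPM for Myh6 and 10022 and 14494 CPM for Myh7. In such bulk libraries fewer cells of a type and less RNA per cell cannot be told apart. The part of other cells in the results below was not tested.

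Per kilobase of exon, the members covered a wide range in FA. Atf4 was the highest at 125 ± 14.9 CPM per kb (SD, n = 4), above 97.2% of the tested genes. Ddit3 (30.9 ± 5.98 CPM per kb) and Ddit4 (27.4 ± 1.87 CPM per kb) came next, and their libraries overlapped. Atf5 (9.08 ± 1.74 CPM per kb), Asns (6.10 ± 1.06 CPM per kb) and Sesn2 (4.84 ± 0.152 CPM per kb) followed, each apart from its neighbours in this order. Chac1 (1.86 ± 0.559 CPM per kb) and Trib3 (1.74 ± 0.541 CPM per kb) overlapped. Gdf15 stood at 0.755 ± 0.269 CPM per kb and Fgf21 at the limit of detection. Of the transcription factors, Atf4 and Ddit3 were thus among the 3 most abundant members, and the hormones were the least abundant.

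**Figure D1:**
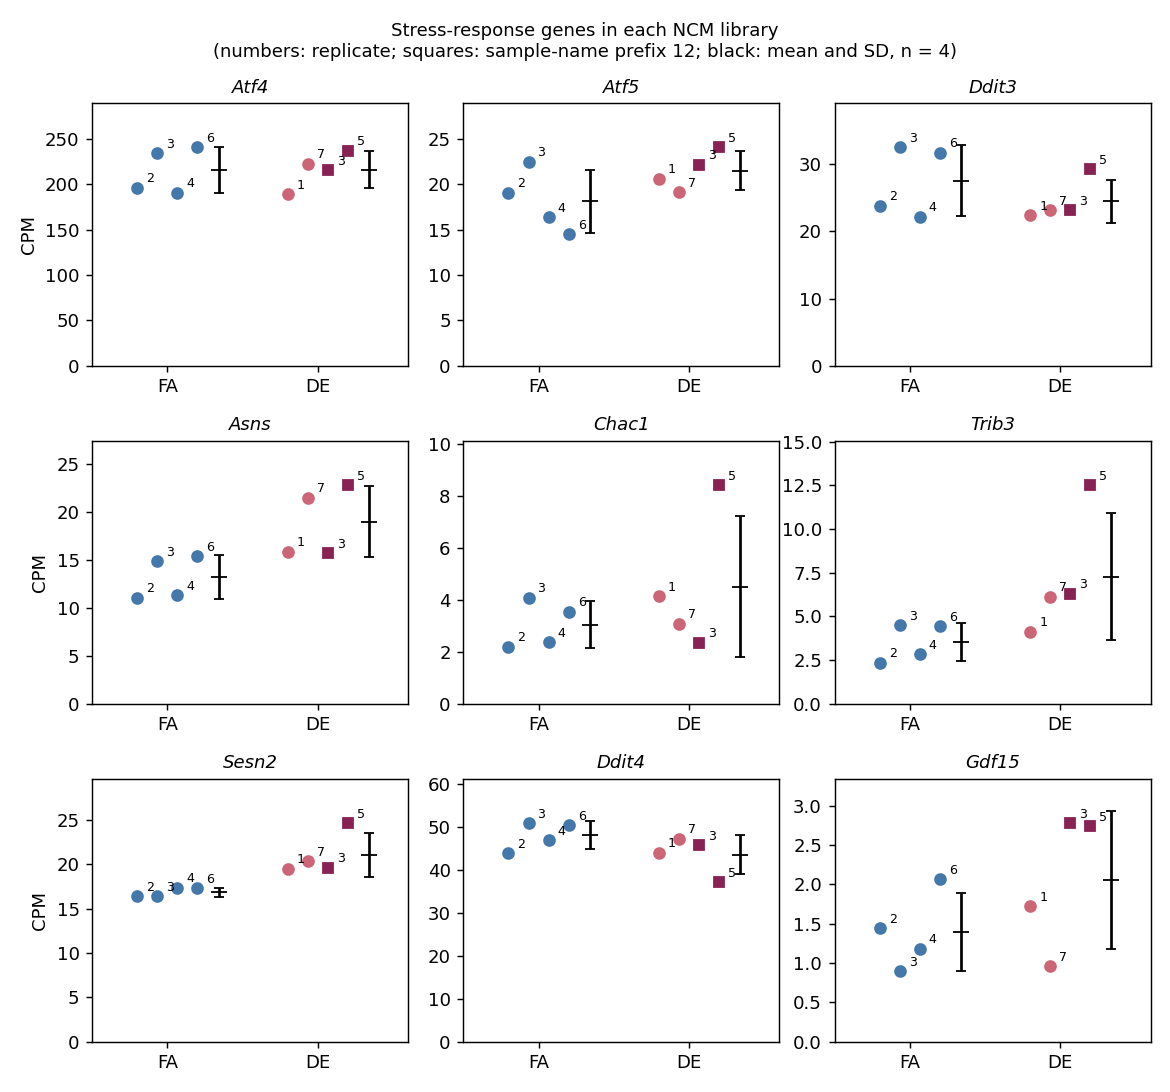
Level of each of the 9 tested members (CPM, vertical axis, from 0, a scale per panel) in the 4 FA and 4 DE libraries, with each point a library marked by its replicate number, squares for names with the number 12, and black bars for the mean and SD. The DE points of Asns (15.7 to 22.8 CPM) and Sesn2 (19.5 to 24.6 CPM) lie above every FA point, while in the other members the groups overlap.

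Whether exposure to DE in utero shifted the response was asked of the 9 members that could be tested, with Fgf21 left out for its 7 counts in all. None of the 9 was called in edgeR's quasi-likelihood test, where 5.8% of all tested genes were called, 3.58% higher and 2.22% lower in DE. At an unadjusted p under 0.05 there were 3 of 9 members, Asns, Trib3 and Sesn2, against 25.6% of all genes. The log2 fold change, DE over FA, was above 0 in 7 of 9, with a median of 0.32 against 0.0037 over all tested genes. Of these 7, Atf4 was at 0.003. Gdf15 was at -0.019 among the libraries with the number 11, and Chac1 at 0.08 without DE replicate 5. The groups did not overlap in 2 of 9, where 14.7% of all genes had this property, and in both of these every DE library lay above every FA library, as in 7.43% of all genes.

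**Figure D2:**
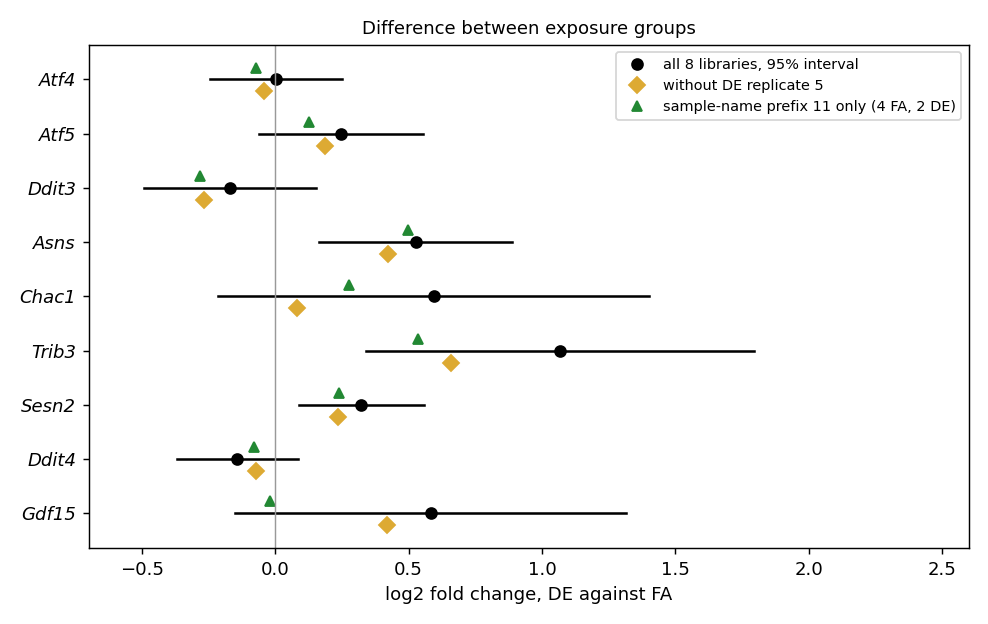
Log2 fold change of DE over FA (horizontal axis) for the 9 tested members, with black points and bars giving the fit over all 8 libraries and its 95% interval (edgeR, quasi-likelihood), diamonds the fit without DE replicate 5 and triangles that of the libraries with the number 11. The intervals of Trib3 (0.34 to 1.80), Asns (0.17 to 0.89) and Sesn2 (0.09 to 0.56) lie above 0, and those of the other 6 members hold 0.

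Among the transcription factors, Atf4 was the most level member. Its gene, the central activator of the response, lies on chromosome 15 (80255184 to 80257545, plus strand, GRCm38). Atf4 stood at 197, 235, 191 and 241 CPM in FA replicates 2, 3, 4 and 6 and at 189, 216, 237 and 223 CPM in DE replicates 1, 3, 5 and 7. The groups covered nearly the same span, with a mean of 216 ± 25.8 CPM in FA against 216 ± 20.2 CPM in DE (SD, 4 libraries per group). The log2 fold change of Atf4 was 0.003 with a 95% interval from -0.24 to 0.25 (adjusted p = 0.989), that is from 0.845-fold to 1.19-fold. With 47816 counts over the 8 libraries, counting error was not what limited this interval. These are levels of mRNA, and the translation of Atf4, at which the response mainly acts, was not measured in these libraries.

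Atf5, a related factor that is linked to the mitochondrial stress response, lies on chromosome 7 (44812256 to 44816658, minus strand). It was at 19.0, 22.5, 16.4 and 14.5 CPM in the FA replicates, in the order given above, and at 20.6, 22.1, 24.1 and 19.1 CPM in the DE replicates. FA replicate 3 lay within the DE range and the other 3 FA replicates below its lowest value. Its log2 fold change was 0.25 ± 0.14 (SE, adjusted p = 0.291). Of its 1993 exon bases, 82 overlap Nup62 and Il4i1b on the other strand.

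Ddit3 encodes CHOP, the factor that takes over when stress persists and favours cell death. Its gene is on chromosome 10 (127290793 to 127296291, plus strand). Ddit3 stood at 23.8, 32.5, 22.1 and 31.7 CPM in FA and at 22.3, 23.1, 29.2 and 23.1 CPM in DE. The FA libraries fell into a lower and a higher pair, and in DE only replicate 5 came near the higher pair. For Ddit3 the log2 fold change was -0.17 ± 0.15 (SE, adjusted p = 0.496), with an interval from -0.49 to 0.15. Of 890 exon bases of Ddit3, 68 overlap Mars1, a methionyl-tRNA synthetase gene on the other strand whose log2 fold change was -0.05 (adjusted p = 0.745). The strand setting of the authors' counting is not given in the sources used here, so reads in these overlaps cannot be assigned with certainty.

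Of the targets, Asns makes asparagine from aspartate and is a classic reporter of amino acid shortage. Its gene lies on chromosome 6 (7675165 to 7693209, minus strand). Asns was at 11.1, 14.9, 11.3 and 15.4 CPM in FA and at 15.9, 15.7, 22.8 and 21.5 CPM in DE. The groups did not overlap, though the highest FA library and the lowest DE library were close. The mean was 13.2 ± 2.29 CPM in FA and 19.0 ± 3.72 CPM in DE, a 1.44-fold difference with a 95% interval from 1.12 to 1.85. On the log2 scale the change of Asns was 0.53 ± 0.17 (SE), and its adjusted p of 0.0813 was above the threshold.

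Trib3, a pseudokinase that restrains AKT and feeds back on ATF4 and CHOP, had the largest fold among the members. The gene is on chromosome 2 (152337425 to 152344060, minus strand). Trib3 was at 2.35, 4.48, 2.82 and 4.43 CPM in FA and at 4.12, 6.31, 12.5 and 6.13 CPM in DE. DE replicate 1 lay below 2 FA libraries, while DE replicate 5 was at nearly 2 times the next library. The mean of 3.52 ± 1.10 CPM in FA stood against 7.27 ± 3.64 CPM in DE, and the fold of 2.10 had a 95% interval from 1.27 to 3.47. A log2 fold change of 1.07 ± 0.33 (SE) had an adjusted p of 0.0798.

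Chac1 degrades glutathione and is induced by ATF4 and CHOP together. It lies on chromosome 2 (119351242 to 119354326, plus strand). Levels of Chac1 were 2.19, 4.09, 2.37 and 3.54 CPM in FA and 4.15, 2.35, 8.43 and 3.09 CPM in DE. The mean in DE was carried by replicate 5, and the other 3 DE libraries lay within or just above the FA range. For Chac1 the log2 fold change was 0.59 ± 0.37 (SE, adjusted p = 0.333), and without DE replicate 5 it was 0.08 (adjusted p = 0.889).

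Sesn2 and Ddit4 both hold back mTORC1, the kinase complex that drives growth. SESTRIN2, the product of Sesn2, senses leucine, and the gene lies on chromosome 4 (132492804 to 132510456, minus strand). Sesn2 was at 16.4, 16.4, 17.3 and 17.3 CPM in FA and at 19.5, 19.6, 24.6 and 20.4 CPM in DE. The FA libraries lay close together, and each DE library was above them. The means were 16.8 ± 0.529 CPM in FA and 21.0 ± 2.44 CPM in DE. On the log2 scale Sesn2 differed by 0.32 ± 0.11 (SE, adjusted p = 0.0954), with a 95% interval from 0.09 to 0.56.

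Ddit4 encodes REDD1, which is also induced by hypoxia and by glucocorticoids. It lies on chromosome 10 (59949675 to 59951770, minus strand). Ddit4 stood at 44.0, 51.0, 47.0 and 50.5 CPM in FA and at 44.1, 45.8, 37.2 and 47.4 CPM in DE. DE replicate 5, which was high in most other members, was the lowest library here. Its log2 fold change was -0.14 ± 0.10 (SE, adjusted p = 0.408), with an interval from -0.37 to 0.08, and without DE replicate 5 it was -0.07.

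The mitokines were scarce. Fgf21, a hormone best known from liver and induced in muscle by mitochondrial disease, is on chromosome 7 (45613890 to 45615490, minus strand). It had 1, 2, 0 and 0 counts in FA and 0, 2, 2 and 0 counts in DE, so no library reached the floor of 3 counts, which stands for 0.0748 to 0.169 CPM depending on the library, and no difference was detectable at this depth. Gdf15, a stress hormone of the TGF-beta family, lies on chromosome 8 (70629393 to 70632470, minus strand). Its levels were 1.44, 0.897, 1.19 and 2.07 CPM in FA and 1.72, 2.78, 2.74 and 0.959 CPM in DE, from 417 counts over the 8 libraries. The groups overlapped, with DE replicates 3 and 5 highest and DE replicate 7 among the lowest. The log2 fold change of Gdf15 was 0.58 ± 0.34 (SE, adjusted p = 0.296), with an interval from -0.15 to 1.32.

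Other settings moved Asns, Trib3 and Sesn2 across the threshold, and no other member was called in any. Asns and Trib3 were called by DESeq2, which called 10.5% of all genes, and by edgeR's likelihood ratio test, which called 10.7%. Asns and Sesn2 were called with library totals in place of TMM factors, where 6.82% of all genes were called, and Trib3 without DE replicate 1, where 7.93% were. Adjusted p-values over the 19 alternatives ran from 0.0353 to 0.464 for Asns, from 0.0164 to 0.432 for Trib3 and from 0.0467 to 0.919 for Sesn2. The log2 fold change of these 3 members stayed above 0 in each of the 19. All of these reuse the same 8 libraries. For Asns and Sesn2 the groups did not overlap, so a change of sign could hardly occur, and the kept sign is no separate support.

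One pattern among the libraries ran through many of the members. DE replicate 5 was the highest DE library in 7 of the 9 tested members and the highest of all 8 in 5, namely Atf5, Asns, Chac1, Trib3 and Sesn2. Over all tested genes these shares were 29.2% and 17.2%. In FA, replicates 3 and 6 were the 2 highest libraries in 6 of 9, namely Atf4, Ddit3, Asns, Chac1, Trib3 and Ddit4, against 29.2% of all genes. Both patterns were picked after the values had been seen. DE replicate 5 also had the lowest summed fibroblast markers among the DE libraries, at 3655 CPM, and the highest summed cardiomyocyte markers among them, at 79254 CPM.

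**Figure D3:**
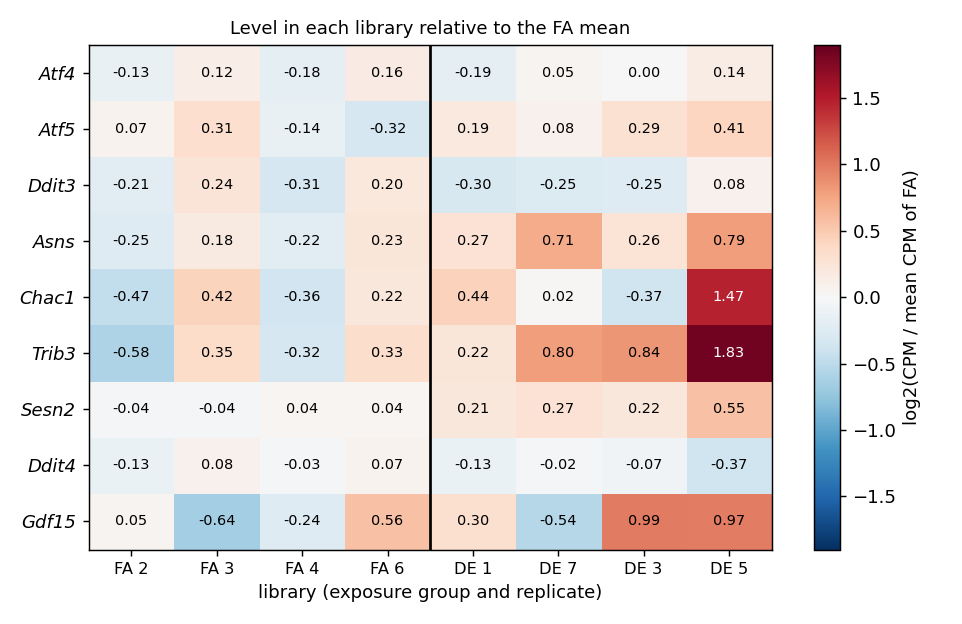
Level of each tested member in each library as log2 of its CPM over the member's mean CPM in FA, by colour and printed value, with the FA libraries on the left and the DE libraries on the right. DE replicate 5 is the highest library for Atf5, Asns, Chac1, Trib3 and Sesn2 and the lowest for Ddit4.

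Without DE replicate 5, the log2 fold change was 0.66 for Trib3 (adjusted p = 0.172), 0.42 for Asns (adjusted p = 0.180) and 0.24 for Sesn2 (adjusted p = 0.216). DE replicates 3 and 5 are also the libraries whose names carry the number 12. Among the 6 libraries with the number 11 (4 FA, 2 DE), the log2 fold change was 0.50 for Asns (adjusted p = 0.199), 0.54 for Trib3 (adjusted p = 0.388) and 0.24 for Sesn2 (adjusted p = 0.337). Gdf15 was at -0.019 there (adjusted p = 0.988) and Chac1 at 0.28 (adjusted p = 0.680). No FA library carries the number 12, so among those libraries there was no comparison to make. For the same reason, with the number as a term in the fit, the exposure difference rests on the same 4 FA and 2 DE libraries. That fit and the fit of number 11 alone are therefore not separate checks.

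The wider pathway was described through 12 lists of genes, most of them from the response and its neighbours. The lists were written with earlier results of these data known. Their counts, here and below, are thus descriptions beside the share of all genes and no test of a list. Of the 21 genes for amino acid synthesis and transport that ATF4 is known to activate, 6 were called higher in DE and 0 lower, where 3.58% of all tested genes were called higher and 2.22% lower. The log2 fold change was above 0 in 17 of 21, with a median of 0.45. Those called were Phgdh, Shmt2, Mthfd2, Mthfd1l, Cth and Slc7a11. Mthfd1l, a mitochondrial enzyme of one-carbon metabolism, rose from 10.1 ± 0.879 to 16.6 ± 1.16 CPM (log2 fold change 0.72 ± 0.11 SE, adjusted p = 0.00560). Mthfd2, its partner in the same organelle, rose from 15.9 ± 3.07 to 28.3 ± 4.59 CPM (0.83 ± 0.15, adjusted p = 0.0138). Cth, which makes cysteine from cystathionine, rose from 0.725 ± 0.138 to 1.75 ± 0.481 CPM (1.28 ± 0.25, adjusted p = 0.0174). Phgdh and Shmt2 act in the serine and glycine branch, and Slc7a11 imports cystine. The summed level of the list was not higher, at 2314 to 2440 CPM in FA and 1989 to 2336 CPM in DE. Most of that sum was the transporter Slc38a2, named after its values were seen, with a mean of 1481 CPM in FA against 1180 CPM in DE (log2 fold change -0.33, adjusted p = 0.0798). The count of 6 was 4 without DE replicate 5, 1 without FA replicate 2, 3 without FA replicate 3, 2 without FA replicate 4, 2 without DE replicate 3, 1 among the libraries with the number 11 and 3 with that number as a term.

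**Figure D4:**
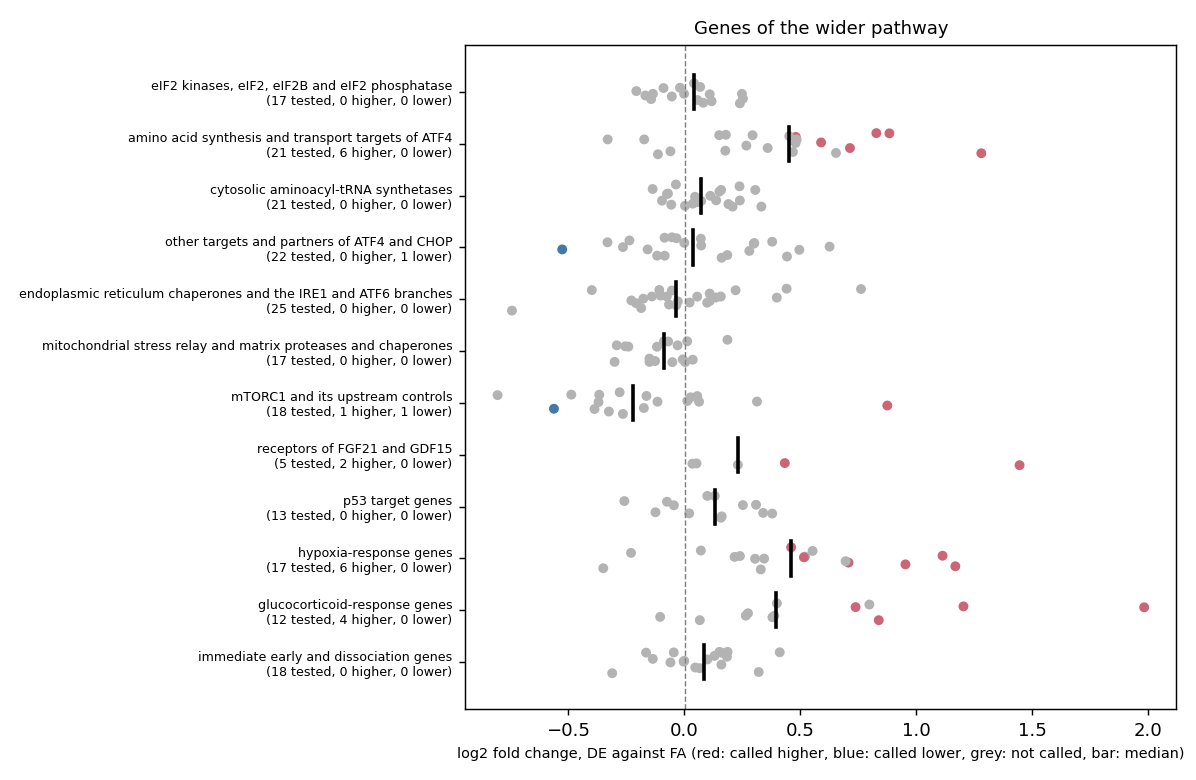
Log2 fold change of DE over FA (horizontal axis) for each tested gene of the 12 lists (rows), with each point a gene, genes called higher in red, called lower in blue and others in grey, and a bar at the median of the list. Genes called higher are found in the lists of amino acid supply (6 of 21), hypoxia (6 of 17) and glucocorticoid response (4 of 12), beside 3.58% of all tested genes. The receptors (Fgfr1 and Fgfr4) and the mTORC1 list (Castor1) also hold genes called higher. Mtor and Vldlr are called lower, and the list medians run from -0.22 to 0.46.

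The upstream machinery gave no call, where 5.8% of all genes were called. Among the 17 genes of the eIF2 kinases, eIF2, its exchange factor eIF2B and its phosphatase, 0 were called and 1 had an unadjusted p under 0.05 in edgeR's test, with 0 called by DESeq2. That gene was Ppp1r15a, which encodes GADD34, the stress-induced regulator that ends the response, whose mean of 281 ± 12.9 CPM in FA stood against 336 ± 40.5 CPM in DE (log2 fold change 0.25 ± 0.10 SE, adjusted p = 0.157). The list of cytosolic aminoacyl-tRNA synthetases, many of them ATF4 targets, held 21 genes, among them the tRNA exporter Xpot. It had 0 called, 3 at an unadjusted p under 0.05 (25.6% of all genes) and a median of 0.07. The smallest p in this list was that of Vars, at 0.33 (adjusted p = 0.0965). Of 22 other targets and partners of ATF4 and CHOP, 0 were called higher and 1 lower (3.58% and 2.22% of all genes). It was Vldlr, a lipoprotein receptor, which fell from 231 ± 31.2 to 161 ± 18.7 CPM (-0.52 ± 0.12, adjusted p = 0.0354), and this call was lost without FA replicates 2, 3 or 4 or DE replicates 3 or 5, each left out alone.

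Counts in the neighbouring branches are read beside the 5.8% of all tested genes that were called and the 25.6% with an unadjusted p under 0.05, and none of the 3 lists below lay above these shares. Of the 25 tested genes of endoplasmic reticulum chaperones and the IRE1 and ATF6 branches, 0 were called and 5 had an unadjusted p under 0.05, with a median of -0.03. Pdia6, a disulfide isomerase, was at 0.44 (adjusted p = 0.0599). Of the 17 genes of the mitochondrial stress relay and the matrix proteases and chaperones, 0 were called, 4 had an unadjusted p under 0.05, 4 were above 0 and the median was -0.09. Afg3l2, a protease of the inner membrane, was at -0.29 (adjusted p = 0.0744). The 13 targets of p53, a factor that is also known to induce Sesn2, had 0 called and 3 at an unadjusted p under 0.05. Cdkn1a, which encodes an inhibitor of the cell cycle, was at 0.34 (adjusted p = 0.127). Of the lists with 0 calls, DESeq2 and the likelihood ratio test called 1 gene each in that of the chaperones and 0 in the others, and limma-voom called 0 in each. The p53 list had 1 call among the libraries with the number 11 and 1 with that number as a term.

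The mTORC1 list, into which Sesn2 and Ddit4 feed, had 1 of 18 genes called higher and 1 lower, where 3.58% and 2.22% of all genes were, with a median of -0.22. An unadjusted p under 0.05 was found for 8 of 18, against 25.6% of all genes, and 6 of 18 were above 0. The calls are given as values of single genes, not as a change of the list. Mtor, the kinase itself, fell from 95.1 ± 14.2 to 64.5 ± 4.55 CPM (-0.56 ± 0.12 SE, adjusted p = 0.0231). Castor1, an arginine sensor that restrains the complex, rose from 2.95 ± 0.616 to 5.41 ± 1.61 CPM (0.88 ± 0.23, adjusted p = 0.0458). The 2 calls fell to 0 without FA replicates 2 or 4 or DE replicates 3 or 5, each left out alone, to 1 without FA replicate 3 or DE replicate 7, and to 0 among the libraries with the number 11 and with that number as a term.

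Of 7 receptor genes for the mitokines, 5 were tested and 2 were called higher. This count is not set against the share of all genes, since Fgfr4 passed the filter on low counts only through the group in which it was higher. Fgfr1, the main receptor of FGF21, rose from 49.4 ± 4.60 to 66.8 ± 5.73 CPM (0.43 ± 0.10, adjusted p = 0.0350). Fgfr4, with 88 counts in all, was at 0.193 ± 0.0838 CPM in FA against 0.542 ± 0.0981 CPM in DE (1.45 ± 0.34, adjusted p = 0.0352). The filter's cutoff of 0.378 CPM was reached by 0 of its FA and 4 of its DE libraries, so that its call is no support for a difference. With a mean of 1 CPM as the filter, 1 receptor gene was called. Klb, the co-receptor that FGF21 requires, had 47 counts over the 8 libraries and Gfral, the receptor of GDF15, had 4, and neither was tested. The count of calls was 2 without DE replicate 5, 1 without DE replicate 7, and 0 without FA replicates 2, 3, 4 or 6 or DE replicates 1 or 3, each left out alone, and it was also 0 among the libraries with the number 11 and with that number as a term. Fibroblasts are known to express Fgfr1, and the fibroblast marker sums given above were higher in DE. The part of fibroblasts in the Fgfr1 call was not tested.

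Lists for hypoxia and glucocorticoids, signals that also act on Ddit4, held further calls. Of 17 hypoxia-response genes, 6 were called higher (3.58% of all genes) and 0 lower (2.22% of all genes), namely Bnip3, Slc2a1, Ldha, Egln3, Pgk1 and Ndrg1, with a median of 0.46. Bnip3, a mitophagy receptor, rose from 88.4 ± 7.74 to 191 ± 26.0 CPM (1.11 ± 0.12, adjusted p = 0.000628), Slc2a1, a glucose transporter, by 0.95 (adjusted p = 0.00308) and Ldha, a lactate dehydrogenase subunit, by 0.71 (adjusted p = 0.00406). Of 12 glucocorticoid-response genes, 4 were called higher (3.58% of all genes) and 0 lower (2.22% of all genes), namely Per1, Fkbp5, Zbtb16 and Cebpd, with a median of 0.40. Per1 rose by 0.84 (adjusted p = 0.0103), Fkbp5 by 1.20 (adjusted p = 0.0231) and Zbtb16 by 1.98 (adjusted p = 0.0231). An unadjusted p under 0.05 was found for 11 of the 17 hypoxia genes, 9 of the 12 glucocorticoid genes, 12 of the 21 amino acid genes and 7 of the 22 other ATF4 and CHOP targets, against 25.6% of all genes. The 6 hypoxia calls were 3 without FA replicate 2, FA replicate 4 or DE replicate 3, and also 3 among the libraries with the number 11 or with that number as a term. The 4 glucocorticoid calls were 1 without FA replicate 2 and 2 without FA replicate 4. Ddit4, a known target of both signals, had the log2 fold change of -0.14 given above (-0.07 without DE replicate 5). A list of 18 genes held immediate early genes and others, such as Hspa1a and Hspa1b, that the isolation of cells can induce. In it 0 were called and 1 had an unadjusted p under 0.05, Ier2 at 0.41 (adjusted p = 0.119).

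The genes whose levels ran most closely with each member were picked as those with the highest Pearson r of log2(CPM + 0.5) over the 8 libraries. They were picked among the tested genes that have a symbol and are not members. These values are descriptions, since the highest of so many correlations over 8 points is high by construction. All of them come from the same 8 libraries, which differ in depth and in the marker sums given above. Atf4 ran most closely with Pmpcb (r = 0.977), Eif4h (r = 0.975) and Clybl (r = 0.973), none of which was called. Trib3 ran with Iftap (r = 0.990), Tceal8 (r = 0.990) and Cetn2 (r = 0.981). With the 2 libraries farthest from the median of Trib3 left out, FA replicate 2 and DE replicate 5, the r of these 3 was 0.963, 0.959 and 0.993. Asns ran with Gm3940 (r = 0.974), Mlf1 (r = 0.970) and Hmgb1 (r = 0.970), and Sesn2 with Ttc16 (r = 0.972), Rad51b (r = 0.964) and Ccl2 (r = 0.958), of which Ccl2, a chemokine, was called higher in DE (log2 fold change 0.81, adjusted p = 0.0224). For Atf5 the most alike were Raver1 (r = 0.976), Ggnbp1 (r = 0.973) and Frat2 (r = 0.960), and for Ddit3 Pecr (r = 0.975), Jtb (r = 0.975) and Slc25a5 (r = 0.972). Gdf15 ran with Pdpn (r = 0.962), Samd10 (r = 0.950) and Slc23a3 (r = 0.949). The r of Chac1 with Nop2 was 0.938, with Snrnp35 0.922 and with Rab3b 0.921. The r of Ddit4 with Rnf180 was 0.932, with Gpr137b-ps 0.927 and with Tmem91 0.922. With the 2 farthest libraries left out, Rab3b fell to 0.651 and Rnf180 to 0.689.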

How the data were processed

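RNA-seq was made from NCMs of 4 FA and 4 DE neonates with a stranded poly-A kit. The authors aligned reads to mm10 and an Ensembl transcriptome with TopHat, marked duplicates, processed alignments with GATK and used featureCounts to count fragments. The deposited table holds these raw counts, not normalized, by Entrez gene. The versions of TopHat and featureCounts, its setting for strand and its handling of reads on several genes are not given in the sources used here, and they bear on overlapping genes. Duplicates were marked but not removed, so floors and counts cover counting error only.

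From these counts, 14966 genes were kept by filterByExpr and tested with edgeR 4.0.16 (TMM, glmQLFit, glmQLFTest, R 4.3.3), exposure being the only term, with Benjamini-Hochberg adjustment over all tested genes. Calls required an adjusted p up to 0.05 and at least a 25% difference. CPM values were computed with the same factors. Libraries were grouped by the exposure in their labels. Symbols matched 25275 of 27179 genes through RefSeq (GRCm38.p6), and exon lengths and strands are those of a GENCODE annotation of GRCm38. Sequences are from RefSeq.

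The members and lists were chosen with earlier results of these data known. Named genes were the members, up to 3 called genes per direction of each list by adjusted p (otherwise the gene with the smallest p), and the 3 genes most alike each member. Lists were described by counts and medians and not tested. Marker lists covered cardiomyocytes, leukocytes, hepatocytes, fibroblasts, smooth muscle with pericytes, and atrial, erythroid and endothelial cells. Alternatives were DESeq2 1.42.0, the likelihood ratio test, limma-voom (limma 3.58.1), a 25% difference built into the test, other scalings and filters, the number in the sample name as a term or within number 11, and each library left out. The methods of the study give 3 samples per group without naming them, and all 8 libraries were used. The code was tested on simulated data.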

Additional observations from a re-analysis of the deposited data

Results flagged for a closer look

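In groups of 4 libraries, a highest or lowest value was marked when its gap to the nearest library exceeded the 95% limit of Dixon's test. Of 18 groups of 4 (9 members, FA and DE), 2 were marked, and chance marks about 1 in 20. Both were DE replicate 5. Ddit3 stood at 29.2 CPM there, against 23.1 CPM in the nearest DE library, and this value still lay within the FA range. Sesn2 stood at 24.6 CPM there, against 20.4 CPM in the nearest DE library, and the other 3 DE libraries were also above every FA library.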

How the results depend on the processing

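The count of members called, 0, became 2 with DESeq2, 2 with the likelihood ratio test and 2 with library totals, and 0 to 1 with each library left out. It was 0 with limma-voom, a test of a difference over 25%, relative log expression or upper quartile factors, no filter, a mean of 1 CPM, the number in the sample names as a term and the libraries with number 11. For all genes, 868 calls became 1618 with DESeq2, 1603 with the likelihood ratio test, 114 with the 25% difference built into the test, 448 with the number as a term, 260 with number 11 alone and 237 to 1168 with each library left out. With library totals 803 genes were higher and 217 lower, against 536 and 332. The log2 fold change of Atf4 was -0.068 with the number as a term, -0.072 with number 11 alone and -0.059 to 0.060 with each library left out, and that of Gdf15 -0.012 and -0.019 under the first pair of these. The other 7 tested members kept their direction in all 19 alternatives, which reuse the same libraries and are not independent checks. Calls ranged from 0 to 9 in the amino acid list (6), 0 to 4 in the other ATF4 targets (1), 0 to 2 in the chaperone list (0), 0 to 4 in the mTORC1 list (2), 0 to 2 in the receptors (2), 0 to 1 in the p53 targets (0), 3 to 8 in the hypoxia list (6) and 0 to 6 in the glucocorticoid list (4). The cause of these shifts was not tested. No paired analysis was possible because FA and DE share only 1 replicate number. Depth limits what can be said of Fgf21 (7 counts), Gdf15 (417 counts) and Fgfr4 (88 counts).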
